A study of Mus musculus with 4 samples.

Results

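An isolated CpG was taken as an autosomal CpG with no other CpG within 150 bp on either side, and 608763 of them had at least 10 calls in each of 4 whole-genome bisulfite sequencing (WGBS) libraries of mouse colonic epithelium. They made up 5.28% of the 11531319 autosomal CpGs that passed the same minimum. Before the minimum there were 1813987 isolated CpGs, or 9.02% of the 20120829 autosomal CpGs with a call in any library, so 33.6% of isolated CpGs passed, against 46.7% of the CpGs with 1 to 2 neighbours within 150 bp and 66.4% of those with 3 or more. Members were chosen by position and number of calls alone, and no methylation value took part in the choice.

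The study asked whether intestinal stem cells (ISCs) change epigenetically between birth and the end of suckling. All mice were offspring of Lgr5-EGFP-CreER mice crossed with wild-type C57 mice. ISCs were Lgr5-EGFP+ cells of the colon and differentiated cells were Lgr5-EGFP-/EpCAM+ cells of the same organ, each taken at postnatal day 0 (P0) and at P21, which gave 4 groups. The P0 DNA came from pooled litters and the P21 DNA from a pool of reporter-positive offspring, with 1 library for each group. EGFP and the inducible Cre are expressed from the Lgr5 locus, a reporter known to be active in only part of the crypts, so EGFP- cells need not all be differentiated. No difference between groups has a replicate, and every such difference below compares libraries of pooled mice.

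In mammals most CpGs are methylated, and after each DNA replication the maintenance enzyme DNMT1 restores the mark on the new strand. A CpG that stands alone, and above all one with A or T on both sides, is known as a place where methylation is often lost over many cell divisions, mostly in late-replicating, AT-rich DNA. Regulatory elements away from promoters can also hold unmethylated CpGs, including lone ones.

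Across the series the 4 libraries held 1005931171 to 1166333988 autosomal calls. The median isolated CpG had 22 calls in P0 ISCs, 30 in P0 differentiated cells, 23 in P21 ISCs and 26 in P21 differentiated cells. In P0 differentiated cells the median went from 20 calls where the sequence within 150 bp of the CpG was under 30% GC to 38 calls where it was over 50% GC, against 22 and 21 in P0 ISCs. Of the isolated CpGs, 39.6% to 61.9% had calls on only 1 strand in a given library. As a check of the labels, the 7 epithelial marker genes and the 4 stem cell marker genes all had levels under 20% within 500 bp of their starts in every library, and none of the 5 blood marker genes did. Of the 5 mesenchymal marker genes 4 were also under 20%, so these starts do not tell the cell types apart.

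The members stood well apart from other CpGs. The median distance to the nearest CpG was 212 bp, 21.3% had none within 300 bp and the largest distance was 2621 bp. The sequence within 150 bp of them was 43.5% GC in the median, against 49.5% for CpGs with 3 or more neighbours. Of all isolated CpGs, 97.5% had no second copy of the 62 bases around them on the autosomes, and 143 lay in CpG islands. The annotation placed 65.5% of them outside protein-coding genes, against 50.4% of all CpGs tested, and 32.8% in introns.

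A few of the sites show what an isolated CpG looks like. Each sequence is 30 bases of the plus strand of the mouse genome (mm9), 5′ to 3′, and the capitals mark the CpG with the base on either side. The first 3 sites gained methylation from P0 to P21 in both populations and the next 3 lost it. The seventh was the only isolated CpG called between populations at both ages. The eighth was unmethylated in every library and the ninth was at intermediate level in every library.
Iqsec1 intron, chr6:90650284-90650285: agctccagaggacACGAgagactcagacca
Site between genes, chr13:116908921-116908922: atcccaaacacagACGGggagaaaaaaggt
Igf2bp1 intron, chr11:95864122-95864123: agtccatgtattcACGAtctccactgtatt
Site between genes, chr3:73426808-73426809: gtacctcttagttCCGGaatccctgtcagg
Site near Scara5, chr14:66270931-66270932: gacattcagtcccACGAgtgcttttctctg
Site near Tmem229a, chr6:24921047-24921048: tcctggctcttccCCGGctacccagtgaca
Site in C130026I21Rik, chr1:85242869-85242870: caaagagatctacCCGCctttgcctcctaa
Fnip1 intron, chr11:54278342-54278343: tttcctctctaccTCGAactgcctcagagt
Rbms3 intron, chr9:117322174-117322175: cactctcacattcACGAccttcctttctta

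Isolated CpGs were highly methylated in every library. Their mean methylation level was 79.2% in P0 ISCs, 79.1% in P0 differentiated cells, 78.1% in P21 ISCs and 77.4% in P21 differentiated cells, with an SD over the 19 autosomes of 0.597 to 0.639 points. Wherever 4 levels follow each other without labels, they stand in this order. The median site was at 85.4%, 84.8%, 85.0% and 84.2% in the same order. Sites at or under 20% made up 2.86%, 2.64%, 3.62% and 3.70%, so low sites were more frequent at P21 than at P0 in both populations. Sites at or over 80% made up 63.0%, 62.2%, 61.6% and 59.8%.

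Compared with CpGs that have 3 or more neighbours, isolated CpGs were higher by 7.57 points (SD 0.784, n = 4 libraries, two-sided exact sign-flip test p = 0.125, the smallest p that 4 libraries can give). With islands included, the gap was 3.47 points with at least 20 calls in each library and 2.74 points with 20 to 30 calls. The part of depth in the gap was not tested. Much of the gap in the main analysis lay with CpG islands, which are mostly unmethylated. With islands left out the difference was 0.919 points (SD 0.728, n = 4, exact sign-flip test p = 0.125), and it was 1.59 points in P0 ISCs, 1.49 in P0 differentiated cells, 0.423 in P21 ISCs and 0.168 in P21 differentiated cells. Against CpGs with 1 to 2 neighbours the difference was -0.708 points (SD 0.290, n = 4, exact sign-flip test p = 0.125). The sign against CpGs with 3 or more neighbours turned to -2.63 points when every call was weighted equally instead of every site. Weighted in this way, isolated CpGs were at 79.0%, 78.5%, 77.9% and 76.9% in the 4 libraries. With islands left out, CpGs with 3 or more neighbours were then at 83.1%, 82.4%, 83.4% and 82.6%. As means over 1-Mb windows, the 2 kinds were at 79.3% and 79.5% in P0 ISCs, and at 77.4% and 78.9% in P21 differentiated cells. At the edge of the choice, sites with the nearest CpG over 150 and up to 160 bp away were at 79.2%, 79.0%, 78.3% and 77.6% in the 4 libraries and sites with 1 neighbour over 140 and up to 150 bp away at 78.9%, 78.7%, 78.0% and 77.3%, so the limit of 150 bp did not mark a step.

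The base on either side of the CpG separated isolated CpGs into levels about 10.1 points apart. The 203270 sites (33.4%) with A or T on both sides had a mean level of 74.87% in P0 ISCs, 74.96% in P0 differentiated cells, 72.8% in P21 ISCs and 72.0% in P21 differentiated cells. The 298545 sites (49.0%) with A or T on 1 side were at 80.5%, 80.2%, 79.7% and 78.9%. The 106948 sites (17.6%) with C or G on both sides were at 84.1%, 83.7%, 83.96% and 83.2%. The difference between A/T-flanked and C/G-flanked isolated CpGs was -10.1 points (SD 1.298, n = 4 libraries, two-sided exact sign-flip test p = 0.125), and it was -5.61 points for CpGs with 3 or more neighbours outside islands and -7.97 points for those with 1 to 2 neighbours.

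**Figure D1:**
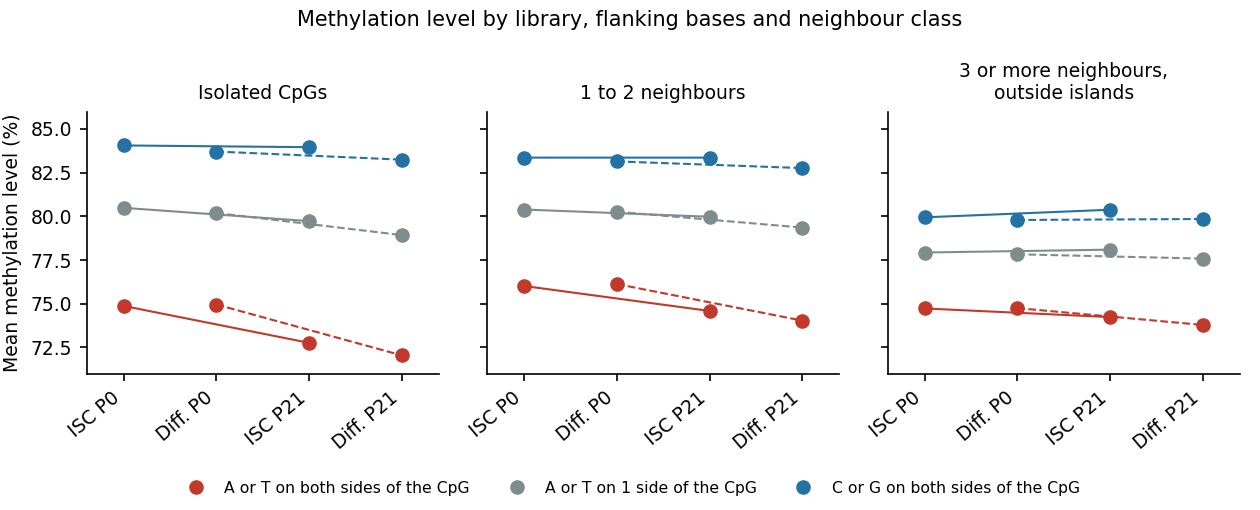
Mean methylation level (%) in the 4 libraries (x axis) of isolated CpGs, CpGs with 1 to 2 neighbours and CpGs with 3 or more neighbours outside islands, by the bases next to the CpG. Each point is the mean over the sites of 1 library, solid lines join the 2 ISC libraries and dashed lines the 2 libraries of differentiated cells. The y axis does not start at 0. A/T-flanked isolated CpGs run from 74.87% to 72.8% in ISCs and from 74.96% to 72.0% in differentiated cells, while C/G-flanked ones stay between 83.2% and 84.1%.

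Flanking bases and isolation therefore have to be read side by side. C/G-flanked isolated CpGs lay above C/G-flanked CpGs with 3 or more neighbours outside islands (called crowded from here on) by 3.75 points (SD 0.324, n = 4, exact sign-flip test p = 0.125). For A/T-flanked CpGs the same difference was 0.142 points in P0 ISCs and 0.207 in P0 differentiated cells, and -1.47 and -1.74 points at P21 (mean -0.716, SD 1.03, n = 4, exact sign-flip test p = 0.5). Over all sites, lone A/T-flanked CpGs were thus near the level of crowded ones at P0 and below them at P21, in both populations. This did not hold in all windows of 1 Mb. In the 479 windows of lowest GC, isolated ones were at 74.5% and crowded ones at 79.6% in P0 ISCs. At P21 the ISC values there were 71.4% and 78.3%. In the 478 windows of highest GC the ISC values were 73.8% and 72.2% at P0 and 72.4% and 71.9% at P21. With all flanks together, isolated and crowded CpGs of P0 ISCs were at 79.5% and 83.6% in the windows of lowest GC. In those of highest GC they were at 77.9% and 75.2%. The difference of 3.75 points for C/G-flanked CpGs was not taken by window, so the part of window composition in it was not tested.

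Finer sequence context gave an ordered series of levels. Over the 10 contexts of 1 base on either side, strands merged, ACGT was lowest with a mean of 72.4% over the 4 libraries, then ACGA with 73.5% and TCGA with 75.4%. The highest were GCGC with 86.2% and CCGC with 84.8%. With 2 bases on either side there were 120 contexts, and the 3 lowest were AACGTT (63.0%, 4702 sites), CTCGAG (64.3%, 3639 sites) and AACGAC (66.2%, 4459 sites). The 3 highest were TGCGCA (91.3%, 2089 sites), TACGCA (89.6%, 4507 sites) and AGCGCA (89.1%, 4312 sites). The 120 levels had an r of 0.929 with the levels of the same contexts among CpGs with 3 or more neighbours outside islands, which come from the same libraries. Isolated CpGs were the lower of the pair in 27 of the 36 A/T-flanked contexts and in 0 of the 28 C/G-flanked ones.

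The second base out went with the level in every flank class. Among A/T-flanked isolated CpGs, those with A or T at both positions 2 bases from the CpG had a level of 78.7% in P0 ISCs (56721 sites), those with 1 such base 75.1% (97331 sites) and those with C or G at both 70.0% (49218 sites). The P21 minus P0 difference in ISCs was -2.14, -2.07 and -2.16 points for the same 3 classes, and -2.87, -2.90 and -2.98 points in differentiated cells. For sites with A or T on 1 side it was -0.687, -0.723 and -0.944 points in ISCs and -1.14, -1.19 and -1.60 in differentiated cells, and for C/G-flanked sites -0.0464, -0.0460 and -0.330 in ISCs and -0.356, -0.430 and -0.748 in differentiated cells. In these 2 classes the most negative value was thus that with C or G at both outer positions. As class means, A/T next to the CpG went with a low level, and A/T 1 base further out went with a high one. Single contexts did not all follow this. A/T-flanked contexts with A or T at both outer positions ran from 63.0% to 87.4%, and AACGTT, the lowest context, is one of them.

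Known binding sequences that hold a CpG were read in the same way, searched on both strands. CACGTG, the E-box core of MYC and USF factors, surrounded 8343 isolated CpGs (1.37% of them, against 1.21% of all CpGs tested) with levels of 68.7%, 68.7%, 66.96% and 66.0% in the 4 libraries. TGACGTCA, the CRE of CREB and ATF factors, surrounded 350 (0.0575%, against 0.0700% of all) with levels from 73.2% in both P0 libraries to 71.6% in P21 differentiated cells. CCGGAAG, part of ETS-family sites, surrounded 2207 (0.363%, against 0.409%) with levels of 83.7% to 84.9%. A match here is a run of letters and not a bound site.

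The comparison of ages asked what happened to lone CpGs during suckling. Isolated CpGs were less methylated at P21 than at P0 in both populations. The P21 minus P0 difference of the mean level was -1.10 points in ISCs (95% counting interval ±0.0276, SD over autosomes 0.119) and -1.67 points in differentiated cells (±0.0256, SD 0.109), with all 19 autosomes below 0 in each. CpGs with 1 to 2 neighbours differed by -0.640 and -1.16 points, and those with 3 or more outside islands by 0.0699 and -0.346 points. Counting error is small at this number of sites, but 1 library for each group leaves no replicate error within a group, and autosomes of 1 library are not replicates. With the 2 populations as blocks the mean age difference was -1.38 points (SD 0.408, n = 2 blocks, two-sided exact sign-flip test p = 0.5, the smallest p that 2 blocks can give).

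The difference was concentrated at A/T-flanked sites. In ISCs it was -2.11 points (±0.0513) for A/T-flanked isolated CpGs, -0.761 for sites with A or T on 1 side and -0.0994 (±0.0596) for C/G-flanked ones, for which 15 of 19 autosomes were below 0. In differentiated cells it was -2.91 (±0.0478), -1.26 and -0.464 points. With 1 to 2 neighbours, A/T-flanked CpGs differed by -1.43 and -2.09 points and C/G-flanked ones by -0.00164 and -0.382 points. Crowded A/T-flanked CpGs outside islands differed by -0.495 and -0.962 points, and crowded C/G-flanked ones by 0.435 and 0.0566 points. Of the 36 A/T-flanked contexts with 2 bases on either side, all 36 were lower at P21 in both populations, and of all 120 contexts 98 were lower in ISCs and 116 in differentiated cells. The most negative context was CTCGAG, with levels of 66.9%, 66.6%, 62.4% and 61.6% and age differences of -4.49 and -5.00 points. Over the processing alternatives the age difference of A/T-flanked isolated CpGs ran from -1.89 to -2.50 points in ISCs and from -2.55 to -3.45 in differentiated cells. It moved with depth in both populations. In ISCs A/T-flanked sites with 10 to 14 calls in every library (2153 sites) differed by -1.27 points, those with 15 to 19 calls (866 sites) by -1.16, those with 31 to 50 calls (4564 sites) by -2.26 and those with over 100 calls (727 sites) by -1.43. In differentiated cells the same 4 classes differed by -3.34, -3.80, -2.85 and -1.89 points. At 15 to 19 calls the 447 C/G-flanked sites differed by -1.44 points in ISCs, slightly more than the A/T-flanked ones. Both classes are small at that depth and no interval was calculated, so their order there is not settled. The part of depth in these values was not tested.

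CpGs in islands were left out of the classes by distance. For A/T-flanked CpGs the age difference became more negative with distance to the nearest CpG up to 750 bp, except between the classes on either side of 150 bp. Those with a neighbour 2 to 10 bp away differed by -0.106 points in ISCs and -0.412 in differentiated cells. At 51 to 75 bp the values were -1.48 and -2.21, at over 100 to 150 bp, just inside the limit, -1.88 and -2.71, at over 150 to 200 bp -1.84 and -2.54, at over 300 to 500 bp -2.43 and -3.39 and at over 500 to 750 bp -2.74 and -3.53. C/G-flanked CpGs stayed between -0.185 and 0.435 points in ISCs over the same distances. By number of neighbours within 150 bp, with islands included, the ISC difference went from -1.10 points with 0 to -0.783 with 1, -0.529 with 2, -0.148 with 4 and 0.745 with 10.

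**Figure D2:**
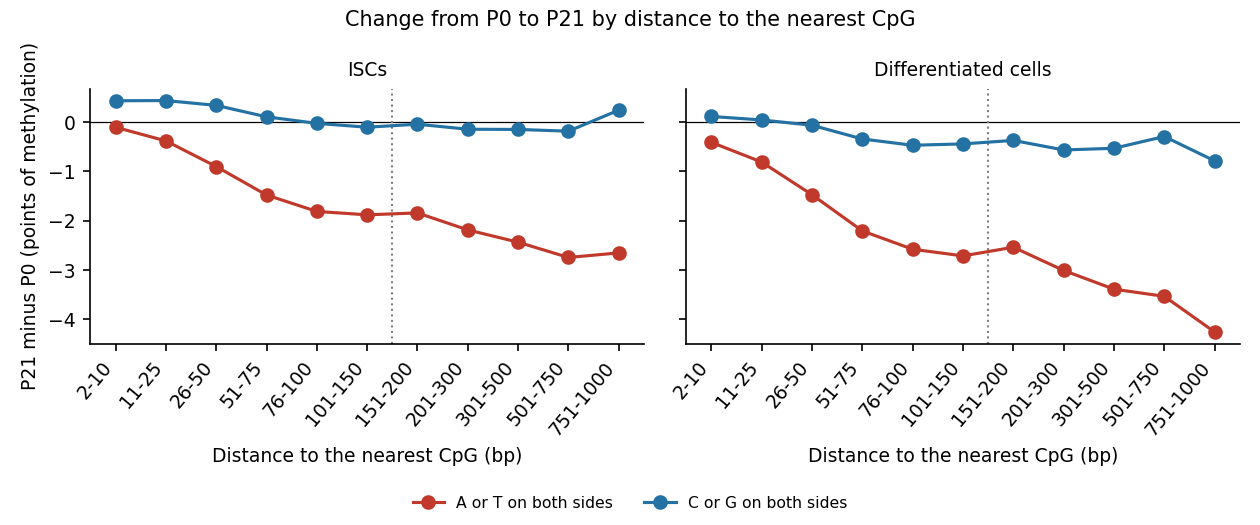
P21 minus P0 difference of the mean level (points, y axis) against the distance to the nearest CpG (bp, classes on the x axis) for A/T-flanked and C/G-flanked autosomal CpGs, in ISCs and differentiated cells. Each point is a mean over all sites of its class outside CpG islands, and the dotted line marks the limit of 150 bp beyond which a CpG is isolated. In ISCs the A/T-flanked values go from -0.106 at 2 to 10 bp to -2.74 at over 500 to 750 bp, and the C/G-flanked ones stay near 0.

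Neighbours also said less about a lone CpG the further away they were. Over isolated CpGs with a covered nearest CpG over 150 and up to 200 bp away (171737 pairs), the mean levels over the 4 libraries of the 2 CpGs had an r of 0.462. At up to 300 bp r was 0.323, at up to 500 bp 0.226 and at up to 1000 bp 0.116, each counted from the limit before. The age differences of such pairs had an r of 0.0967 in ISCs and 0.100 in differentiated cells in the nearest of these classes, and of 0.0176 and 0.0165 in the farthest. Both members of a pair come from the same libraries, and counting error at 10 or more calls lowers these values.

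The comparison of populations asked how ISCs and their differentiated progeny differ at each age. At P0 isolated CpGs of differentiated cells were at 79.1% and those of ISCs at 79.2%, a difference of -0.178 points (±0.0263). The sign of this value depended on the sites admitted: it was 0.170 points with 20 to 30 calls in every library and 0.129 points with at least 5 calls on each strand, the second chosen after seeing the data. At P21 the difference was -0.756 points (±0.0269), below 0 on all 19 autosomes, and -0.339 points with at least 5 calls on each strand. For A/T-flanked isolated CpGs it was 0.0824 points at P0, with 5 of 19 autosomes below 0, and -0.716 points at P21, with all 19 below 0. Depth moved with the values of A/T-flanked sites. At P0, those with 10 to 14 calls in every library gave 0.869 points and sites with over 100 calls gave -0.879 points. The P21 value moved with depth too, from -0.378 points at 20 to 30 calls to -1.51 at 15 to 19 calls, and it was -1.34 points with over 100 calls. The part of depth in either result was not tested.

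Site by site, the libraries were compared by a two-sided Fisher's exact test with Benjamini-Hochberg adjustment over all 11531319 CpGs, and a CpG was called where the adjusted p was below 0.05 and the levels were over 15 points apart. These are differences between libraries and not between conditions. Between ages in ISCs 538 isolated CpGs were higher at P21 (0.0884%, against 0.145% of all CpGs tested) and 2154 were lower (0.354%, against 0.349%). In differentiated cells 753 were higher (0.124%, against 0.256%) and 3847 lower (0.632%, against 0.687%). The share of isolated CpGs that lost methylation was thus near that of all CpGs and the share that gained it was below. At the same depth of 20 to 30 calls in every library, 0.348% of isolated CpGs and 0.494% of CpGs with 3 or more neighbours were called between ages in ISCs, and 0.518% and 0.562% in differentiated cells.

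Between populations few isolated CpGs were called. At P0 67 were higher in differentiated cells (0.0110%, against 0.00821% of all CpGs) and 35 lower (0.00575%, against 0.00402%). At P21 12 were higher (0.00197%, against 0.000711%) and 6 lower (0.000986%, against 0.000694%). Only 1 was higher at both ages (0.000164%, against 5.2e-05% of all CpGs) and 0 were lower at both (against 8.67e-06%). With sites over 100 calls in any library left out, 39 were called at P0 and 3 at P21, in either direction.

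The flanking bases of the called sites differed by comparison and direction. A/T-flanked sites made up 37.8% of the 2154 that lost methylation in ISCs and 38.3% of the 3847 in differentiated cells, against 33.4% of all isolated CpGs. Among sites that gained methylation they made up 33.8% in ISCs and 26.3% in differentiated cells. Between populations at P0 they made up 53.7% of the 67 higher and 60% of the 35 lower sites, and at P21 50% of the 12 higher and of the 6 lower ones, so these shares rest on few sites. The sites that lost methylation in ISCs had a median level of 77.1% at P0 and 18.2% at P21, a separation that follows from their choice. Sites within 2000 bp of a transcription start made up 10.4% of them, against 6.05% of all. Calls on 1 strand only, the same strand in both libraries, were found at 33.5% of the called sites and 31.4% of all.

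Both populations shared some of these sites. Of the isolated CpGs called lower at P21, 739 were called in both populations (0.121%, against 0.166% of all CpGs), which is 34.3% of the ISC list and 19.2% of the differentiated list. Their median levels were 71.4%, 69.1%, 11.4% and 13.95% in P0 ISCs, P0 differentiated cells, P21 ISCs and P21 differentiated cells. The separation of the ages in these medians follows from the choice of the sites. Among them 30.7% were A/T-flanked, 45.1% lay in protein-coding genes against 34.5% of all isolated CpGs, and 9.88% lay within 2000 bp of a start. Called higher in both were 41 (0.00673%, against 0.0233%), which is 7.62% of the ISC list and 5.44% of the differentiated list. Over all CpGs tested, 19194 were lower in both, out of 40285 lower in ISCs and 79209 lower in differentiated cells. Higher in both were 2691, out of 16697 and 29559. No isolated CpG was called in opposite directions, and 91.9% of those called lower in ISCs had the same sign in differentiated cells, with median differences of -51.4 points in ISCs and -27.4 points in differentiated cells. Of those called higher in ISCs 72.1% had the same sign in differentiated cells, with median differences of 48.2 and 8.78 points. These sites were chosen by their difference in ISCs, so the size of the ISC medians follows in part from the choice. The medians of the 2 populations therefore cannot be compared as sizes. For comparison, 51.4% of all isolated CpGs were lower and 43.7% higher at P21 in differentiated cells. The 2 age comparisons share no library, but the methods describe 1 pool of mice for each age, so they need not be independent.

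The sites named next were chosen by their calls and differences between libraries, so their values and p values are a description and their separation of the libraries follows from the choice. The 3 strongest shared gains included sites in 2 genes. The site in intron 1 of 13 of Iqsec1, which encodes an exchange factor for ARF GTPases, had 3 of 17 calls methylated in P0 ISCs, 2 of 28 in P0 differentiated cells, 22 of 25 in P21 ISCs and 32 of 45 in P21 differentiated cells. Both P0 libraries were low and both P21 libraries high (17.6% and 7.14% against 88.0% and 71.1%, Fisher's exact test, adjusted p = 0.00568 in ISCs and 3.19e-05 in differentiated cells). The site in intron 2 of 14 of Igf2bp1, an RNA-binding protein of fetal tissues, had levels of 24.7%, 19.9%, 84.1% and 77.9% over 82 to 171 calls, all on the minus strand (Fisher's exact test, adjusted p = 1.03e-10 in ISCs and 4.86e-19 in differentiated cells). The third, on chromosome 13 and 35052 bp from the start of Gm6404, had 9 of 33, 1 of 10, 19 of 22 and 14 of 15 calls methylated.

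The 3 strongest shared losses lay outside genes. The site on chromosome 3, 85356 bp from the start of Bche, had 20 of 20 and 16 of 16 calls methylated at P0, then 0 of 14 in P21 ISCs, where the upper limit, taken here and below as 3 calls of the total, is 21.4% (23.2% by the exact 95% binomial interval), and 2 of 15 in P21 differentiated cells. The site 14309 bp from the start of Scara5, a ferritin receptor gene, had levels of 84.6% and 90.9% at P0, 0 of 16 calls in P21 ISCs, which allows up to 18.8%, and 6.67% in P21 differentiated cells. All calls at this site, and all but 1 at the site on chromosome 3, were on the minus strand. The site 14750 bp from the start of Tmem229a had levels of 96.0%, 96.2%, 8.70% and 12.5%. For single sites the exact 95% binomial interval is wide: 8.70% in P21 ISCs near Tmem229a stands for 2 of 23 calls and an interval of 1.07% to 28.0%.

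The isolated CpG called between populations at both ages lay in C130026I21Rik, 103 bp from a transcription start. Its levels were 60.9% in P0 ISCs, 88.7% in P0 differentiated cells, 67.1% in P21 ISCs and 87.5% in P21 differentiated cells (Fisher's exact test, adjusted p = 5.8e-17 at P0 and 2.58e-09 at P21). It had 372 to 571 calls in a library, all on the plus strand, against a median of 22 to 30 calls, and its 62 bases occur again elsewhere on the autosomes. The part of the copies in the difference was not tested.

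Site differences were partly beyond counting error. The SD of the difference between libraries, after counting error was taken out, was 9.74 points between ages in ISCs, 9.20 between ages in differentiated cells, 8.43 between populations at P0 and 7.15 at P21. The 2 strands of an isolated CpG in the same library differed by an SD of 10.4 to 12.8 points beyond counting error, over 22308 to 39886 sites with at least 10 calls on each strand. In the 2975 sites with at least 10 calls on both strands of all 4 libraries, the SD was 9.36 and 8.27 points between ages, 6.64 and 5.34 between populations and 10.5 to 12.1 between strands. A library level averages over both strands where both have calls, and is that of 1 strand elsewhere. These SDs are therefore not on the same scale and are given as a description. The age differences of ISCs and of differentiated cells had an r of 0.159 over all 608763 isolated CpGs, or 0.358 with counting error taken out, against 0.506 for CpGs with 3 or more neighbours.

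A small group of isolated CpGs was unmethylated throughout. At or under 5% in every library were 2764 sites, or 0.454% of isolated CpGs, against 0.736% of CpGs with 1 to 2 neighbours and 8.96% of those with 3 or more, islands included. They were near a transcription start more often than isolated CpGs as a whole, with 15.3% within 2000 bp against 6.05%. Their nearest CpGs, taken for the 2685 with one within 1000 bp, had mean levels of 36.6%, 37.0%, 32.2% and 31.7% in the 4 libraries, against 79.9%, 79.7%, 79.1% and 78.4% for all isolated CpGs. Among those with at most 100 calls in any library, the deepest was a site 6820 bp from the start of Pttg1ip. It had 4 of 89, 0 of 89, 1 of 84 and 2 of 97 calls methylated, where the count of 0 allows a level of up to 3.37%. A site in intron 1 of 17 of Fnip1, whose product is a partner of folliculin, lay 280 bp from the start and had 0 of 83, 0 of 100, 1 of 81 and 0 of 80 calls methylated, where the counts of 0 allow levels of up to 3.61%, 3.0% and 3.75%. A site in intron 20 of 27 of Egfr, the epidermal growth factor receptor, had levels of 1.299%, 2.56%, 0 of 77 calls and 0 of 90 calls, the last of which allow up to 3.90% and 3.33%. All calls at the Fnip1 site were on the minus strand and all at the Egfr site on the plus strand. At the Pttg1ip site all but 1 were on the plus strand.

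Another small group stayed at intermediate level. Between 40% and 60% in every library were 4478 sites (0.736%, against 0.611% of CpGs with 1 to 2 neighbours and 0.521% of those with 3 or more). Their nearest CpGs were highly methylated, with 74.1%, 74.1%, 73.3% and 72.5%. A/T-flanked sites made up 50.4% of them against 33.4% of all isolated CpGs, and CACGTG, itself A/T-flanked, 3.31% against 1.37%. The deepest of those with at most 100 calls in any library was at 42.7% to 54.3% on chromosome 12. It lay 9317 bp from the immunoglobulin gene Gm16900 and its 62 bases had a copy elsewhere. A site in intron 1 of 14 of Rbms3, an RNA-binding protein gene, had 53 of 90, 53 of 94, 50 of 90 and 44 of 88 calls methylated, all on the minus strand. A site in intron 17 of 37 of Ulk4, a kinase-like gene, was at 48.9%, 41.8%, 50.6% and 44.9%, and its 62 bases also had a copy.

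Position relative to genes went with the level of isolated CpGs. The 3811 isolated CpGs from 1000 bp upstream of a coding gene through its first exon were at 71.4%, 71.8%, 69.8% and 69.4% in the 4 libraries, the 6700 in other exons at 82.0%, 81.9%, 81.0% and 80.7%, and the 199709 in introns at 80.03%, 79.9%, 79.2% and 78.5%. Outside coding genes, 398543 sites were at 78.9%, 78.7%, 77.7% and 76.9%. From 1000 bp upstream through the first exon the age difference was -1.56 points in ISCs and -2.37 in differentiated cells. By distance to the nearest start it was -1.17 and -1.84 within 500 bp, -0.929 and -1.45 at 2001 to 10000 bp, and -1.56 and -2.23 over 200 kb away (65149 sites). For A/T-flanked sites over 200 kb from a start it was -3.02 points in ISCs.

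Over the genome, 2391 windows of 1000000 bp held at least 100 isolated CpGs, with a median of 251. The mean isolated CpG level of a window in P0 ISCs ran from 66.0% to 86.8% with an SD of 2.42 points, and the SD was 2.77 in P21 differentiated cells. Window levels were similar between libraries, with r of 0.930 between populations at P0, 0.949 between populations at P21, 0.896 between ages in ISCs and 0.914 between ages in differentiated cells. A/T-flanked isolated CpGs were below C/G-flanked ones in 98.1% to 98.7% of windows, depending on the library. With window GC content the level of isolated CpGs had an r of -0.236 in P0 ISCs and -0.0666 in P21 differentiated cells, against -0.689 and -0.666 for CpGs with 3 or more neighbours outside islands.

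Lower levels at P21 were spread over most of the genome. In ISCs 83.7% of windows were lower at P21 for isolated CpGs, and 92.8% in differentiated cells, against 56.1% and 79.6% of windows for CpGs with 3 or more neighbours outside islands. Over windows the mean difference of A/T-flanked isolated CpGs was -2.07 points (SD 2.12) in ISCs and -2.86 (SD 2.01) in differentiated cells, and that of C/G-flanked ones was -0.104 (SD 2.08) and -0.448 (SD 1.93). A/T-flanked sites were lower at P21 in both populations in 1891 windows and higher in both in 75. The window differences of the 2 populations had an r of 0.402 for A/T-flanked and 0.169 for C/G-flanked isolated CpGs.

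**Figure D3:**
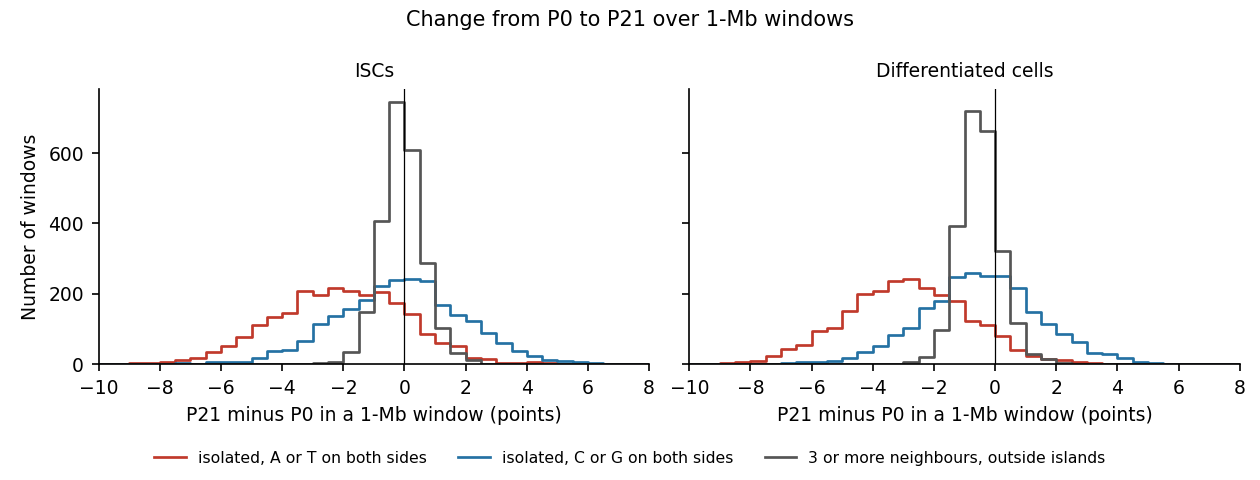
Number of 1-Mb windows (y axis, classes of 0.5 points) by P21 minus P0 difference of the mean level (points, x axis) in ISCs and differentiated cells, for A/T-flanked isolated, C/G-flanked isolated and crowded CpGs outside islands. The A/T-flanked distribution is centred at -2.07 points in ISCs and -2.86 in differentiated cells and the C/G-flanked one at -0.104 and -0.448. The crowded CpGs form a narrower curve and rest on more sites in each window.

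The age difference of A/T-flanked sites was graded by base composition of the window, a known correlate of replication timing, which was not measured here. In the 479 windows of lowest GC (35.7% to 38.5%) A/T-flanked isolated CpGs were at 74.5%, 74.3%, 71.4% and 70.4% and differed by -3.08 points between ages in ISCs and -3.91 in differentiated cells. In the 478 windows of highest GC (44.96% to 53.7%) they were at 73.8%, 73.9%, 72.4% and 71.6% and differed by -1.47 and -2.29 points. C/G-flanked isolated CpGs differed by -0.0601 points in the lowest and -0.159 in the highest group in ISCs, and by -0.240 and -0.642 in differentiated cells. Crowded A/T-flanked CpGs went from -1.34 to -0.304 points in ISCs. In P0 differentiated cells the median calls at A/T-flanked isolated CpGs also changed with window GC, from 27 to 33, and the part of depth in the gradient was not tested.

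**Figure D4:**
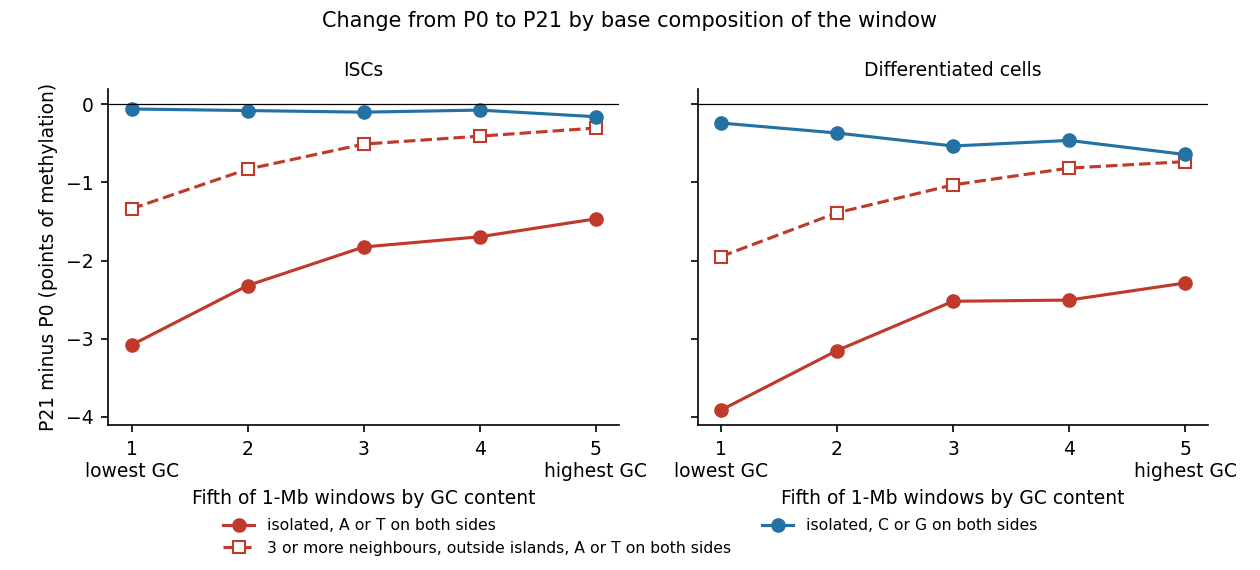
P21 minus P0 difference of the mean level (points, y axis) in 5 equal groups of 1-Mb windows ordered by GC content (x axis), in ISCs and differentiated cells. Filled circles are isolated CpGs, red for A/T-flanked and blue for C/G-flanked, and open squares are crowded A/T-flanked CpGs outside islands. A/T-flanked isolated CpGs go from -3.08 to -1.47 points in ISCs and from -3.91 to -2.29 in differentiated cells as GC rises.

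The windows at the ends of the range of levels are given as a description. The lowest mean level over the 4 libraries was 65.7% in chr15:102000001-103000000, which holds 9 Hox genes and Sp1, and the next was 67.8% in chr11:96000001-97000000, which holds 10 Hox genes and Skap1. Crowded CpGs outside islands were low there too, at 58.0% and 62.4% in P0 ISCs. The third, chr7:69000001-70000000 with 69.5%, holds the imprinted genes Magel2, Mkrn3 and Ndn, and there crowded CpGs outside islands were at 81.5% in P0 ISCs against 70.95% for isolated ones. The highest were chr1:62000001-63000000 (86.4%, Pard3b and Nrp2), chr13:67000001-68000000 (85.2%, with 23 zinc-finger genes named Zfp) and chr15:5000001-6000000 (85.2%, with Prkaa1 and Ptger4).

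Between ages, ranked by the population in which a window differed less, the most negative windows were chr15:21000001-22000000 and chr6:27000001-28000000. The first holds the cadherin gene Cdh12 and was at 79.3%, 79.1%, 74.96% and 74.9% in the 4 libraries, and the second holds the glutamate receptor gene Grm8 and was at 77.9%, 76.0%, 73.7% and 71.4%. In the first, A/T-flanked isolated CpGs differed by -7.73 and -6.08 points over 90 sites, C/G-flanked ones by -1.13 and -0.469 over 37 sites and crowded CpGs by -0.894 and -1.06. In the second, A/T-flanked isolated CpGs differed by -7.50 and -5.79 points over 99 sites and C/G-flanked ones by -7.48 and -0.764 over 26 sites, so in ISCs both flank classes were lower there by about the same amount. By the same rule the most positive windows were chr7:152000001-153000000, with the cyclin D1 gene Ccnd1 (76.9%, 75.7%, 78.6% and 78.6%), and chr19:39000001-40000000, with 10 Cyp2c cytochrome P450 genes (79.5%, 79.2%, 81.1% and 80.8%).

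Within genes, 888 protein-coding genes had at least 50 isolated CpGs. The median gene was at 80.04%, 79.9%, 78.9% and 78.3% in the 4 libraries, with age differences of -0.920 and -1.49 points, and 59.1% of genes were lower at P21 in both populations. Members of 3 lists of large genes, grouped by where they are known to be used, were read against these values. Genes were not tested, and SEs below are over the isolated CpGs of a gene, which are not independent.

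Large neuronal and synaptic genes, most of which are known from the nervous system, lay mostly below the median gene. Of 24 listed, 22 had enough sites, and 19 of the 22 were below the median of all genes. Their medians were 77.9%, 77.3%, 76.1% and 75.2%, with median age differences of -1.81 and -2.39 points, and 19 were lower at P21 in both populations (86.4%, against 59.1% of all genes). These genes are long, with a median length of 1228 kb against 321 kb for all genes, and long genes hold more isolated CpGs. Of the 86 genes of any kind with at least 200 isolated CpGs, a number chosen after seeing the data, 82.6% were lower at P21 in both populations and the median level over the 4 libraries was 77.7%. Members of the list are among these 86. Grm8 was at 77.7%, 75.9%, 74.0% and 71.9% over 225 sites, with age differences of -3.67 ± 1.01 (SE) and -4.01 ± 0.9996 (SE) points. Nrxn3, a presynaptic neurexin, was at 76.0%, 75.2%, 73.5% and 73.2% over 519 sites, and Cntnap2, a neuronal adhesion gene with 630 sites, was at 78.0%, 77.1%, 76.7% and 74.6%. Lingo2 went the other way in ISCs, with 78.2% at P0 and 82.8% at P21, a difference of 4.60 ± 0.934 (SE) points, and was at 79.3% and 79.7% in differentiated cells.

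Large epithelial and broadly used genes lay higher. Of 28 large epithelial genes only 8 had enough sites, with medians of 81.8%, 80.9%, 81.5% and 81.9%, 2 below the median of all genes. In ISCs 7 of the 8 were lower at P21, with a median age difference of -0.912 points against -0.920 for all genes, while in differentiated cells 3 were lower and the median was 0.423 points. The same 3 were lower in both populations. Pard3, a polarity gene, was at 80.5%, 80.1%, 81.7% and 82.9%, and Magi1, a tight junction scaffold, at 79.5%, 78.1%, 79.3% and 80.6%. Kcnq1, a basolateral potassium channel gene, was at 79.6%, 79.8%, 75.7% and 76.3%, with age differences of -3.91 ± 1.57 (SE) and -3.51 ± 1.44 (SE) points. Of 20 large broadly used genes 13 had enough sites, with medians of 83.8%, 83.5%, 82.5% and 82.2% and none below the median of all genes. Of these 7 were lower at P21 in ISCs and 9 in differentiated cells, 5 in both, with median age differences of -0.604 and -0.766 points. Herc2, a ubiquitin ligase gene, was at 90.3%, 87.2%, 88.0% and 88.4%, and Exoc4, an exocyst subunit, at 83.8%, 83.0%, 83.9% and 83.3%. The share of A/T-flanked sites was alike in the lists, with medians of 35.3% in neuronal, 33.8% in epithelial and 32.9% in broadly used genes.

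**Figure D5:**
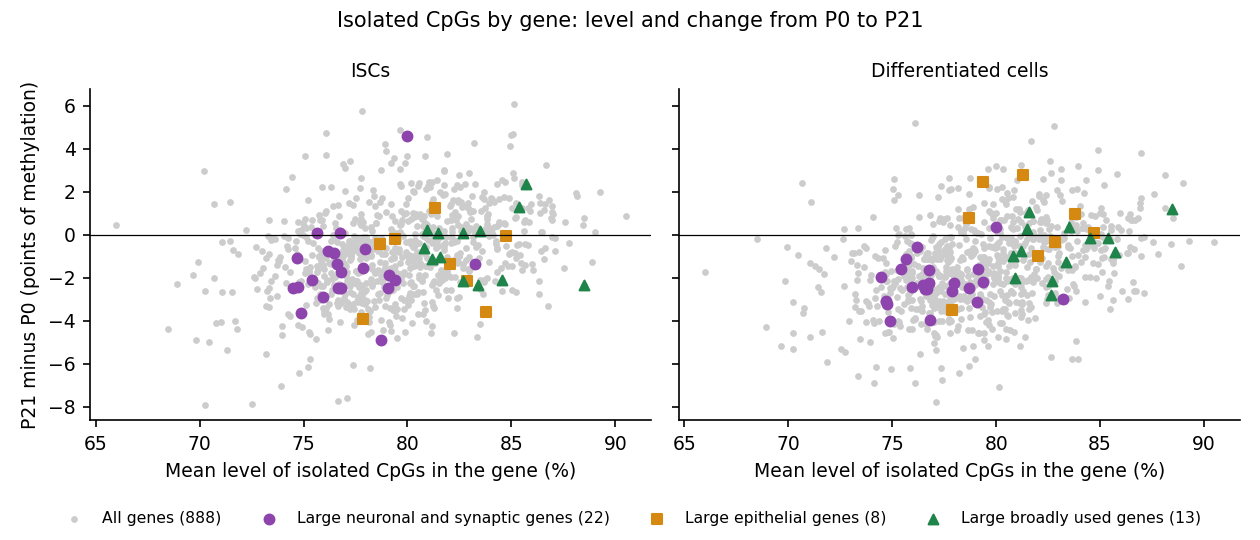
Mean isolated CpG level of a gene over the 4 libraries (%, x axis) against its P21 minus P0 difference (points, y axis) in ISCs and differentiated cells. Grey points are all 888 genes with at least 50 isolated CpGs, and coloured points are the members of 3 lists. Of the 22 neuronal genes 19 lie left of the median gene at 79.3%, and the 13 broadly used genes all lie right of it.

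At the low end of the gene ranking stood Trpm8, the cold-sensing channel, with 67.2%, 65.4%, 67.6% and 63.7% over 51 sites (SE 3.76 to 4.22 points). Next came the clustered protocadherin Pcdha11, the potassium channel gene Kcnd3, Znrf3 and C130026I21Rik. The site with a copy that was called between populations at both ages lies in C130026I21Rik, and the part of copies in the level of this gene was not tested. Znrf3, a ubiquitin ligase that removes Wnt receptors from the surface of stem cells, was at 70.1%, 72.7%, 68.2% and 67.5% over 76 sites. The highest was 2310008H04Rik with 89.9%, 90.8%, 90.8% and 90.5%, followed by AW554918, Mbd5, Rsrc1 and Prkdc. Ranked by the population in which a gene differed less, the most negative was Tns3, which encodes the focal adhesion protein tensin 3, with 80.8%, 81.1%, 73.2% and 73.3% and age differences of -7.59 ± 2.53 (SE) and -7.77 ± 1.79 (SE) points. Ugt1a8, a glucuronosyltransferase gene, was also among the 3 most negative by this rule, with -7.86 points in ISCs and -5.33 in differentiated cells. By the same rule the most positive was Nrp1, a co-receptor for VEGF and semaphorins, with 73.8%, 73.4%, 78.5% and 78.6% and differences of 4.73 ± 2.26 (SE) and 5.20 ± 2.42 (SE) points, followed by Gm12824 and Gphn, the gephyrin gene.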

How the data were processed

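Per the labels and the methods of the study, adaptors were ligated to sonicated DNA before bisulfite conversion, PCR and paired-end sequencing. The authors mapped the reads to mm9 with Bismark and Bowtie, whose versions, like any removal of duplicate reads, are not given in the sources used. The count of all calls and the count of methylated calls at every CpG cytosine were deposited for each library. The deposited fraction is the ratio of those counts and was not used.

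Positions at no CpG of the mm9 reference (0.469% to 0.860% of the positions of a library) were left out, and the 2 strands of a CpG were summed. Neighbours were counted among all 20120829 CpGs with a call in any library. The level of a site was its methylated calls in percent of its calls, and a mean gave each site the same weight. CpG islands were 500-bp windows with at least 25 CpGs. Gene positions came from the GENCODE annotation of the same build. The search for copies compared the CpG and 30 bases on either side with all other autosomal CpGs.

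Each group had 1 library, so libraries were compared by Fisher's exact test for each CpG with Benjamini-Hochberg adjustment, and classes of CpGs by a two-sided exact sign-flip test over the 4 libraries (16 sign patterns). With 1 pool of mice described for each age, the libraries of an age need not be independent, which the sign-flip tests do not take into account. The calling step was tested on simulated data that held counting error only. The number of false calls from other differences between these libraries was therefore not tested. Intervals and upper limits cover counting error only, a base difference from C to T reads as unmethylated, and PCR copies, if kept, make the intervals too narrow, the adjusted p values too small and the numbers of called sites too high.

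The rule for members, the gene lists and the tests were chosen with earlier results of these data known, although the rule itself uses position and number of calls and no methylation value. Named sites were the 3 with the largest shared gain and the 3 with the largest shared loss called in both comparisons. Among stable low and stable intermediate sites they were the 3 with most calls, out of those with at most 100 calls in any library. Named windows and genes were those with the lowest and highest levels and the most negative and most positive age differences. Age differences were ranked by the population that differed less, and any member of the lists could be named. A gene that the rule names is not reported here. Numpy 2.4.6, pandas 2.3.3, scipy 1.17.1, numba 0.67.0 and matplotlib 3.10.9 were used under Python 3.11.15.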

Additional observations from a re-analysis of the deposited data

Results flagged for a closer look

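Among isolated CpGs with A or T on both sides, the P0 differentiated cells had a mean level 0.0824 points from that of the P0 ISCs and the corresponding value for P21 was -0.716 points, each taken as differentiated cells minus ISCs. It is given here because the sign differed between the ages. The difference between the 2 values was not tested, since each group had 1 library, and both values changed with depth, as given above.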

How the results depend on the processing

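The order of A/T-flanked below C/G-flanked isolated CpGs and the lower level at P21 in both populations kept their direction under each alternative that was run, and the A/T minus C/G difference ran from -11.9 to -9.06 points. The difference from CpGs with 3 or more neighbours was -2.63 points with every call weighted equally and 0.919 without islands. It was 3.47 points with at least 20 calls in each library and 2.74 with 20 to 30 calls, against 7.57 in the main analysis. Without CpGs within 2000 bp of a start it was 0.637 points, and the sign was not the same in all 4 libraries (exact sign-flip test p = 0.375, against 0.125 in every other alternative that was run). With every call weighted equally the age difference in differentiated cells was -1.54 points and the population differences were -0.542 at P0 and -0.977 at P21. With at least 20 calls the latter were -0.343 and -0.887. With neighbours counted within 75 bp the age differences were -0.935 and -1.53 points and the population differences -0.123 and -0.717. This set held 1835804 sites, against 608763 in the main analysis. Of them 9298 and 16311 were called between ages and 273 and 37 between populations. Within 300 bp the differences were -1.34 and -2.00 points between ages and -0.854 between populations at P21. Of 129735 sites, 473, 846, 24 and 5 were called. With 20 to 30 calls the age differences were -0.828 and -1.74 and the population difference at P0 0.170 points. Adjusting over these sites only gave 47, 40, 0 and 1 called of 13517 isolated CpGs. With at least 5 calls on each strand, chosen after seeing the data, the values were -1.56 points between ages in differentiated cells and 0.129 and -0.339 between populations. Of 38107 sites, 204, 376, 10 and 0 were called. With at most 100 calls 39 and 3 of 591721 sites were called between populations. Without sites that have a copy of their 62 bases, also chosen after seeing the data, 9 of 593508 were called at P21. A difference over 15 points with no test gave 152191, 135974, 136585 and 126976 of 608763 sites in the 4 comparisons. Numbers of called sites come from sets of different size and cannot be compared as counts. The cause of the moves of the differences was not tested.

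The labels give no replicate numbers, so no replicates were paired. Taken over the 2 ages as blocks, the differentiated minus ISC difference of isolated CpGs was -0.467 points (SD 0.408, n = 2 blocks, exact sign-flip test p = 0.5). No library was left out in turn, since that would leave a group empty. The alternative without repeats was not run, since the reference marks none. At a median of 22 to 30 calls a single site has a wide interval, while means over many sites are limited by the missing replicates and not by counting.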
